A study of Sus scrofa with 21 samples.

Results

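Glycosyltransferases are the enzymes that build the sugar chains of glycoproteins, glycolipids and proteoglycans by moving 1 sugar at a time from an activated donor onto a growing chain. The genes described here were chosen by name alone, as those whose symbol on the array began with FUT, POFUT, ST3GAL, ST6GAL, ST8SIA, GALNT, GCNT, MGAT, B3G, B4G, A4GALT, ALG, OGT, EXT, CHST or HS2ST, HS3ST and HS6ST. This rule found 75 gene names on 121 probes, among 47030 gene names on 60305 probes. Each name is counted as a gene here, though some names are old. ST6GALNAC-V and ST6GALNAC5 share the RefSeq name ST6GALNAC5. In RefSeq the B3GNT1 probe belongs to B4GAT1 and the ST6GALNAC2 probe to ST6GALNAC4. The CHST and HS2ST, HS3ST and HS6ST genes among them encode sulfotransferases, which add sulphate to finished sugars and are not glycosyltransferases. After the 25% of probes with the lowest mean level were removed, 62 of the 75 genes were left on 99 probes. The other 13 genes, which include B3GAT1, EXTL2, MGAT3 and ST8SIA3, were too dim on this blood array to be tested.

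Most of these enzymes sit in the endoplasmic reticulum or the Golgi, where the order in which they act decides which chain is made. The ALG enzymes assemble a lipid-linked oligosaccharide that is handed whole to proteins, the MGAT enzymes branch it, the GALNT enzymes start mucin-type chains, and the B3G, B4G, FUT and ST enzymes lengthen and cap the ends. On blood cells such ends form blood group antigens, selectin ligands and gangliosides. FUT1 adds fucose in alpha-1,2 linkage to a terminal galactose and so makes the H antigen, and in pigs it is known for its role in the attachment of some enterotoxigenic Escherichia coli to the gut.

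Whole blood RNA was taken at 60 days of age from 10 DD pigs and 11 LW pigs and labelled with 1 dye and hybridized, 1 pig to an array, to a pig array made by Agilent. DD is an inbred minipig line that is homozygous for 1 haplotype of the swine leucocyte antigen complex, LW is the Large White breed used as its control, and both were untreated, were raised on 1 farm and ate the same standard diet freely. The DD pigs came from 5 litters and the LW pigs from 6, spread over 3 chips that each held both breeds. As DD is 1 inbred line, breed, inbreeding and body size cannot be told apart, and siblings are not independent. In whole blood, fewer cells of a type and less RNA per cell cannot be told apart either.

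The share of probes well above background ranged from 44.7% to 63.8% over the arrays, and no probe was saturated. As a measure of brightness, the processed signal at the 75th percentile was taken for each array on the log2 scale. It averaged 7.53 ± 0.54 (SD, n = 10) over the DD arrays and 8.22 ± 0.38 (SD, n = 11) over the LW arrays. The breeds were close on chip 1, at 7.95 and 8.02, and far apart on chip 3, at 7.09 and 8.36. All levels below are deposited log2 quantile-normalized intensities, averaged over the kept probes of a gene. The log2 FC is DD minus LW from a limma model with breed, chip and litter, and adjusted p-values are Benjamini-Hochberg values over all 34511 features tested, with a threshold of 0.05.

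The probes of FUT1 and B4GALNT1 are shown first, because these genes had the smallest p-values of the set and each was measured by 2 probes. Each probe is 60 bases long, and the first 30 bases are given in lower case, 5′ to 3′. The first FUT1 probe started at base 1249 of its source transcript and the second at base 2364. One B4GALNT1 probe started at base 2589 and for the other no start was given.
FUT1, base 1249: tagcagctggacacttatttcaagagtgat
FUT1, base 2364: ttatgatagagttgtctgagaatctaagcc
B4GALNT1, base 2589: aattgtagtgtgtctctgcaatgctgtggg
B4GALNT1, no start given: atggagagacctggtgactctggagctggt

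In DD pigs 7 of the 62 tested genes were higher (11.3%) and 3 were lower (4.84%) than in LW pigs. Over all features 11.4% were called higher and 9.8% lower, so the share of higher members was near that of the array and the share of lower members was under it. FUT1, B4GALNT1, B3GNT5, B3GNT8, CHST12, B3GALNT2 and ALG13 rose, and B3GALNT1, B4GALT3 and ST8SIA4 fell. The median log2 FC was −0.05 over the 62 members and −0.05 over all features, and the median size of the difference was 0.22 and 0.23. Without adjustment, 19 members had a p below 0.05. The counts depended on the arrays and the model. When chip 3 was left out, 0 members passed in limma and 1.52% of all features did. That fit had fewer pigs and a correlation between siblings of 0.23, against −0.11 with all arrays. In it the log2 FC of B4GALNT1 and B3GNT5 was larger than with all arrays, and that of FUT1 was smaller. With array brightness as a covariate 2 members passed in limma, FUT1 and B3GNT5, and 2.18% of all features.

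**Figure D1:**
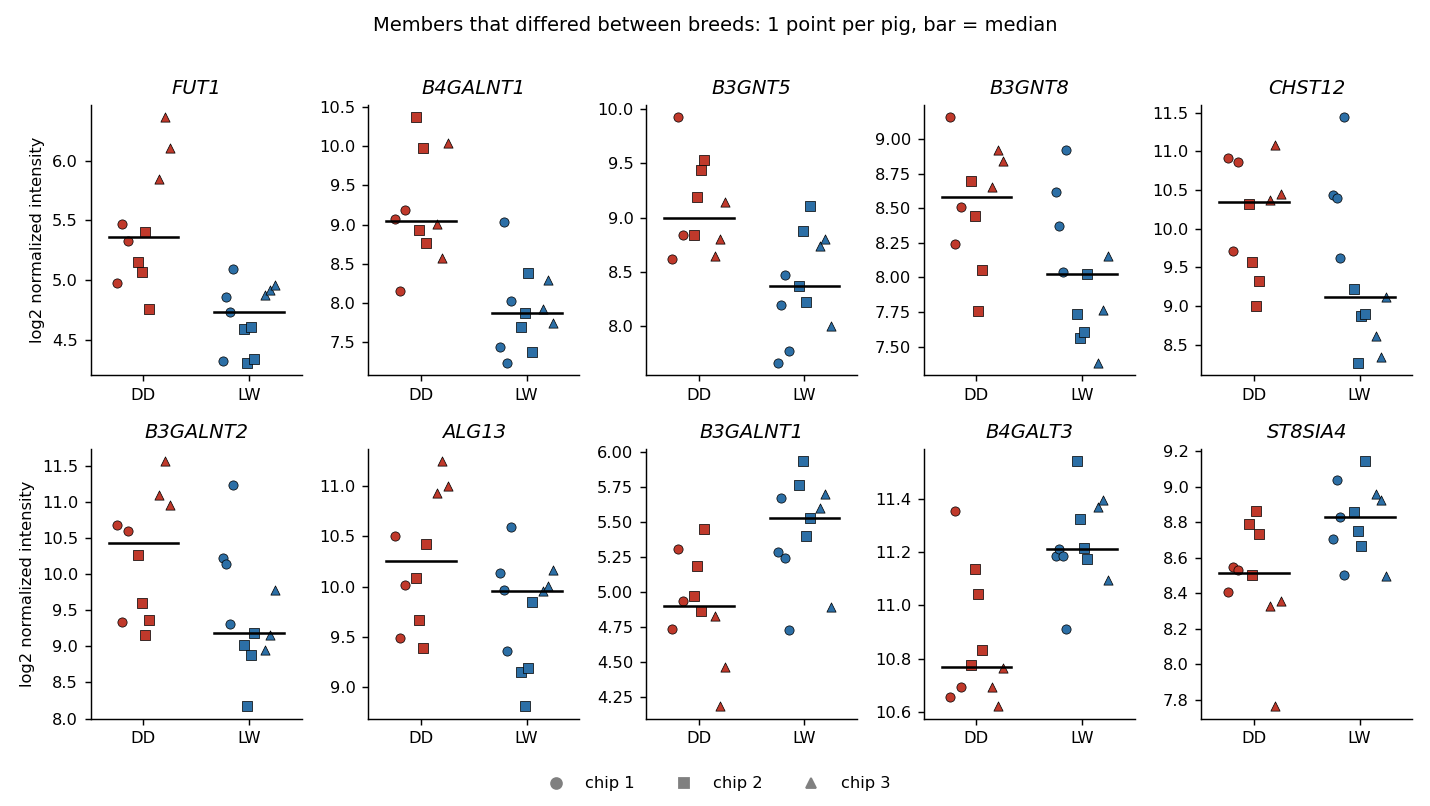
Log2 normalized intensity (y axis) of the 10 members that passed the threshold, with 1 point per pig, red for DD and blue for LW, a marker shape per chip and a bar at the median of each breed. In FUT1 the 3 highest pigs are the DD pigs of chip 3, and in CHST12 and B3GALNT2 the breeds overlap on chip 1 and are apart on chip 3.

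FUT1 was higher in DD pigs. Sscrofa11.1 places the gene at chromosome 6, 54077431 to 54080475. Its level ran from 4.76 over a median of 5.36 to 6.36 in the 10 DD pigs, and from 4.31 over a median of 4.74 to 5.10 in the 11 LW pigs. The breeds overlapped in part, with 7 DD pigs above all LW pigs and 6 LW pigs below all DD pigs. The log2 FC was 0.75 ± 0.12 SE (adjusted p = 0.000372, limma), a 1.68-fold difference on this scale. On chips 1, 2 and 3 the breeds differed by 0.50, 0.63 and 1.19. These values average 2 probes, of which the dim one, at base 1249, differed by 0.07, 0.48 and 1.39. After chip effects were removed, with the true breeds kept in the model, all 5 DD litter means lay above all 6 LW litter means. Shuffling these corrected means over litters gave p = 0.00216 (permutation test, two-sided), the smallest that 462 divisions allow. The correction was not repeated for each division, so the test is not exact, and 1 LW litter held a single pig.

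The level of FUT1 was low, and its size depended on how low signals were treated. With each array scaled to its 75th percentile the log2 FC was 1.45, and with a background offset of 50, which compresses dim signals, it was 0.33, both with an adjusted p below the threshold. Without chip 3 it was 0.58 (limma adjusted p = 0.0685). With any 1 animal left out it stayed between 0.69 and 0.81, with a limma adjusted p of at most 0.00113.

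The 2 probes of FUT1 were not equally bright. The probe at base 2364 was detected well above background in all 10 DD pigs and in 8 of 11 LW pigs, and its level was 5.42 at the lowest, 6.09 at the median and 6.82 at the highest in DD pigs, against 4.67, 5.31 and 5.73 in LW pigs. Fitted by itself, this probe had a log2 FC of 0.89 ± 0.16 SE (adjusted p = 0.00108, limma), and its difference was nearly the same on the 3 chips, at 0.94, 0.79 and 0.99. The probe at base 1249 was well above background on 2 DD arrays and on 0 LW arrays, so that it gives no size for the difference.

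FUT2, whose product adds the same alpha-1,2 fucose mainly in secretions, lies near FUT1 on chromosome 6, from 54034666 to 54044891. Of its 3 probes 1 was kept, and that probe was well above background on 3 DD and 7 LW arrays. Its level ran from 4.09 over a median of 5.20 to 5.73 in DD pigs and from 4.48 over a median of 4.93 to 5.70 in LW pigs. The ranges overlapped almost wholly, and its log2 FC of 0.05 ± 0.16 SE (adjusted p = 0.849, limma) did not pass. The difference between the FUT1 and FUT2 effects was not tested.

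Of the other fucosyltransferases none passed the threshold. FUT8, which adds the core fucose of N-glycans, had a log2 FC of −0.39 ± 0.16 SE (adjusted p = 0.0730, limma), with −0.10, −0.15 and −1.06 on chips 1, 2 and 3. FUT4, which makes the Lewis x structure on leucocytes, was among the brighter members, with medians of 10.91 in DD and 10.71 in LW pigs and a log2 FC of 0.07 (SE 0.19). FUT11 had a log2 FC of −0.22, and POFUT1, which puts fucose on Notch receptors, had one of −0.21.

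B4GALNT1 showed the largest difference among the 62 tested members. It encodes the N-acetylgalactosaminyltransferase that makes the gangliosides GM2 and GD2, and lies on chromosome 5, from 22889654 to 22897386. Its level ran from 8.15 over a median of 9.04 to 10.36 in DD pigs, and from 7.24 over a median of 7.88 to 9.04 in LW pigs. In this gene 5 DD pigs were above all LW pigs and 8 LW pigs were below all DD pigs. This gave a log2 FC of 1.28 ± 0.25 SE (adjusted p = 0.00209, limma), which is 2.42-fold, with within-chip differences of 0.87, 1.68 and 1.22.

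Both B4GALNT1 probes were well above background on all arrays. The probe at base 2589 had a log2 FC of 1.25 (SE 0.23) and the other one of 1.30 (SE 0.27), so the 2 probes differed by less than their standard errors. After the same chip correction as for FUT1, all 5 DD litter means were above all LW litter means (permutation test over litters, two-sided, p = 0.00216). In this test, which is not exact, B3GALNT1 reached the same p in the lower direction, and so did GALNT2, which was not called in limma. Their separation of litters also holds for chip-corrected values only. The call was lost without chip 3, where the log2 FC was 1.31 (limma adjusted p = 0.0679), and with brightness as a covariate, where it was 1.09 (limma adjusted p = 0.0975).

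B3GNT5, the enzyme that starts lacto-series glycolipids, ran from 8.61 over a median of 8.99 to 9.92 in DD pigs and from 7.66 over a median of 8.36 to 9.11 in LW pigs. Here 5 DD pigs were above all LW pigs. Its log2 FC was 0.69 ± 0.17 SE (adjusted p = 0.0122, limma). Its within-chip differences ran the other way from those of most called genes, with 1.10 on chip 1, 0.61 on chip 2 and 0.35 on chip 3. With brightness as a covariate the log2 FC was 1.01 (limma adjusted p = 0.00988), and without chip 3 it was 0.86 (limma adjusted p = 0.0829).

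B3GNT8, which extends branched N-glycans with polylactosamine, ran from 7.76 over a median of 8.58 to 9.16 in DD pigs and from 7.38 over a median of 8.03 to 8.93 in LW pigs. Only 1 DD pig was above all LW pigs, and the ranges overlapped broadly. Its log2 FC was 0.55 ± 0.15 SE (adjusted p = 0.0203, limma), with differences of 0.15, 0.51 and 1.04 on chips 1, 2 and 3. With brightness as a covariate it was 0.12 (limma adjusted p = 0.916).

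CHST12 and B3GALNT2 had nearly the same profile over the pigs. CHST12 encodes a chondroitin 4-O-sulfotransferase, and B3GALNT2 an N-acetylgalactosaminyltransferase that acts on alpha-dystroglycan. CHST12 ran from 9.00 over a median of 10.34 to 11.09 in DD pigs and from 8.26 over a median of 9.11 to 11.44 in LW pigs. B3GALNT2 ran from 9.16 over 10.43 to 11.57 in DD pigs and from 8.17 over 9.19 to 11.23 in LW pigs. In both genes the ranges overlapped broadly, and the 3 highest LW pigs were on chip 1.

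The log2 FC was 0.86 ± 0.25 SE (adjusted p = 0.0248, limma) for CHST12 and 0.85 ± 0.25 SE (adjusted p = 0.0265, limma) for B3GALNT2. On chips 1, 2 and 3 CHST12 differed by 0.02, 0.74 and 1.95, and B3GALNT2 by −0.02, 0.78 and 1.91. After breed and chip were taken out, the 2 genes correlated at r = 0.98 over the 21 pigs, which share array brightness as well as blood. With brightness as a covariate the log2 FC was 0.04 for CHST12 and 0.01 for B3GALNT2. Leaving out the pig DD_21, LW_12, LW_18 or LW_22 ended the call of either gene, with limma adjusted p-values between 0.0504 and 0.0592, and leaving out DD_10 also ended that of B3GALNT2. B3GALNT2 differed in sign between chips and was named after its values were seen.

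ALG13, with ALG14 the transferase of the second sugar of the lipid-linked precursor, ran from 9.39 over a median of 10.25 to 11.25 in DD pigs and from 8.81 over a median of 9.95 to 10.59 in LW pigs. The 3 DD pigs above all LW pigs were those of chip 3. Its log2 FC was 0.54 ± 0.18 SE (adjusted p = 0.0350, limma), with −0.01, 0.64 and 1.02 on chips 1, 2 and 3. The gene lost its call when any of 13 single animals was left out, DD_21 among them (limma adjusted p = 0.0725), and its direction with brightness as a covariate, at −0.04.

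Its 2 probes differed, and are shown because the mean of a gene can hide this. The first one had no stated start and a log2 FC of 0.83 ± 0.25 SE (adjusted p = 0.0278, limma), and the second one started at base 772 and had a log2 FC of 0.26 ± 0.13 SE (adjusted p = 0.150, limma).
ALG13, no start given: ttctctcatatacgagacacaagccttcct
ALG13, base 772: ttctgtgagacatattttatcagtcagcgt

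B3GALNT1, which makes globoside, the P antigen of red cells, was lower in DD pigs. It ran from 4.18 over a median of 4.90 to 5.45 in DD pigs and from 4.73 over a median of 5.53 to 5.94 in LW pigs. In it 6 LW pigs were above all DD pigs and 2 DD pigs below all LW pigs. This gave a log2 FC of −0.55 ± 0.14 SE (adjusted p = 0.0135, limma), with −0.24, −0.54 and −0.91 on chips 1, 2 and 3. The gene mean includes a probe at base 502 that was well above background on 0 DD arrays and 1 LW array. The other probe, at base 1726, was so on 9 DD and 11 LW arrays and by itself had a log2 FC of −0.71 ± 0.20 SE (adjusted p = 0.0234, limma). With an offset of 50 it was −0.25 (limma adjusted p = 0.0190) and with brightness as a covariate −0.23 (limma adjusted p = 0.665).

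B4GALT3, a galactosyltransferase of N-glycan ends, ran from 10.62 over a median of 10.77 to 11.36 in DD pigs and from 10.91 over a median of 11.21 to 11.54 in LW pigs. All but 3 DD pigs were below all LW pigs. Its 2 probes had a log2 FC of −0.38 and −0.39, and the gene one of −0.38 ± 0.10 SE (adjusted p = 0.0161, limma). On chips 1, 2 and 3 the difference was −0.22, −0.37 and −0.59. In the fit with brightness the log2 FC was −0.16 (limma adjusted p = 0.647).

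ST8SIA4, which builds polysialic acid, had the smallest of the called differences. It ran from 7.76 over a median of 8.52 to 8.86 in DD pigs and from 8.49 over a median of 8.83 to 9.14 in LW pigs. In it 4 LW pigs were above all DD pigs and 4 DD pigs below all LW pigs. The log2 FC was −0.33 ± 0.11 SE (adjusted p = 0.0362, limma), with −0.27, −0.13 and −0.64 on chips 1, 2 and 3. It was lost in 11 of the 21 fits that left out 1 animal, DD_21 among them, where it was −0.26 (limma adjusted p = 0.0711). In the fit with brightness it was −0.19 (limma adjusted p = 0.714).

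**Figure D2:**
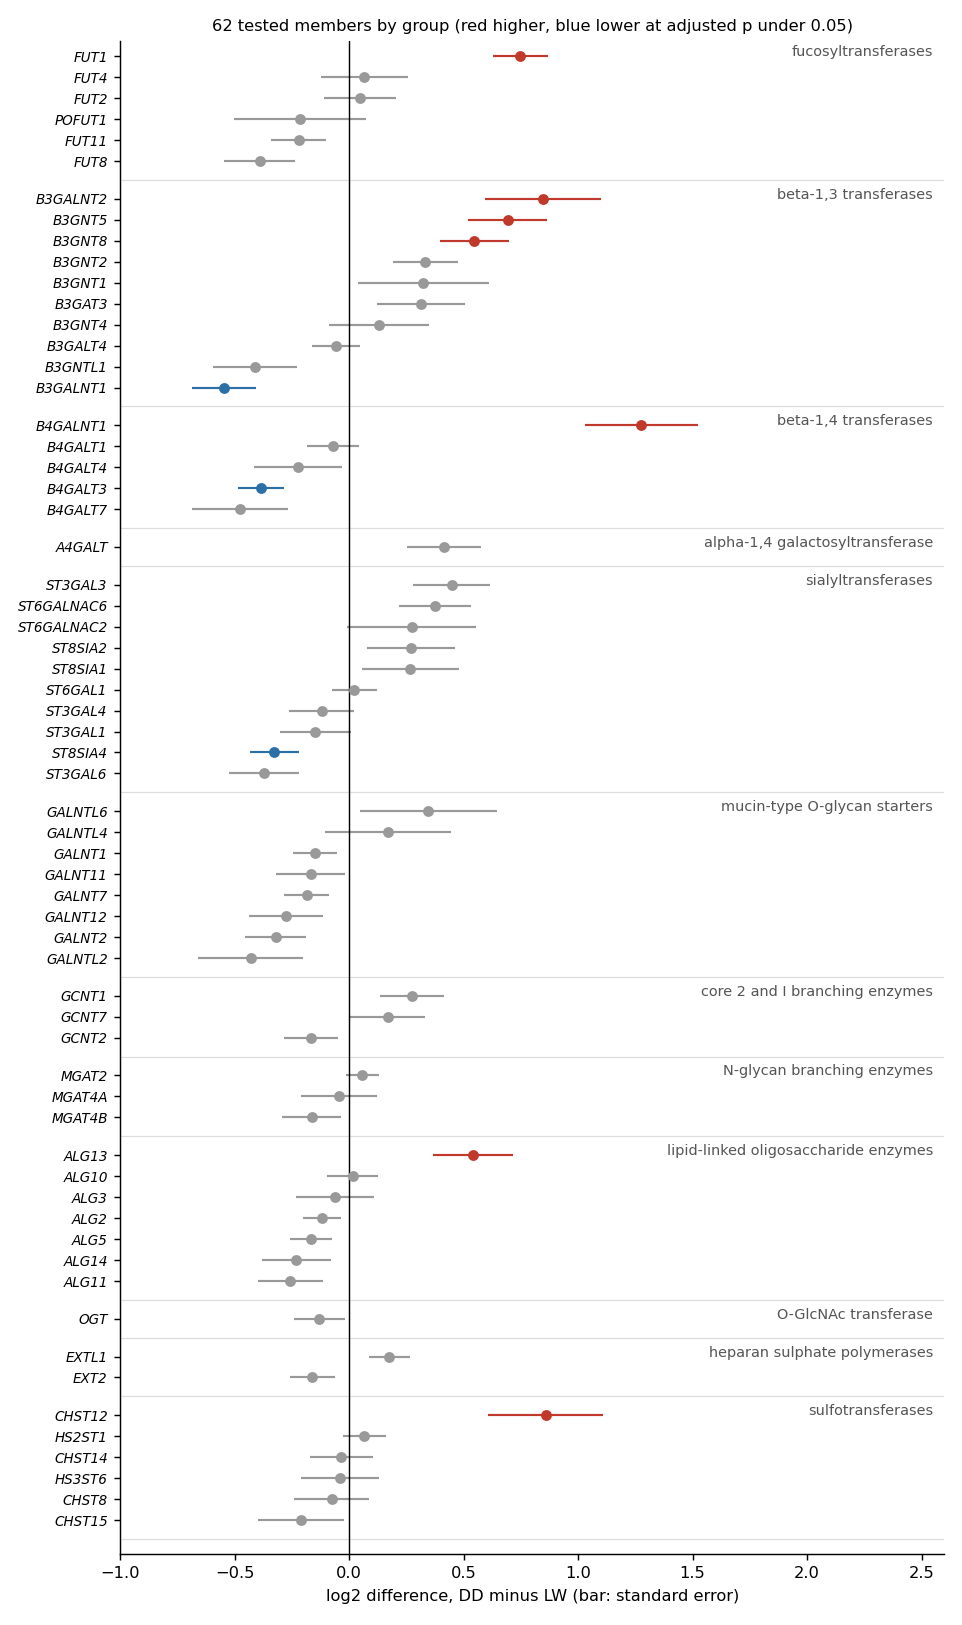
Log2 difference of DD minus LW (x axis, points with bars of 1 standard error) of the 62 tested members, listed by the kind of sugar or step, with red for the 7 called higher, blue for the 3 called lower and grey for the rest. B4GALNT1 at 1.28 lies farthest from 0, and no GALNT, GCNT or MGAT gene is coloured.

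By kind of enzyme the calls are set beside the 21.2% of all features that were called in either direction. The kinds follow the names on the array, so B3GNT1 is counted as a beta-1,3 transferase. Of the 10 tested beta-1,3 transferases 3 rose and 1 fell, with a median log2 FC of 0.32. Of the 5 tested beta-1,4 transferases 1 rose and 1 fell, with a median of −0.23. Of the 10 tested sialyltransferases 1 fell, with a median of 0.14. Of the 6 tested sulfotransferases 1 rose, with a median of −0.04, and of the 7 ALG genes 1 rose, with a median of −0.12. None of the 8 tested GALNT, 3 GCNT, 3 MGAT and 2 EXT family genes passed at the level of the gene. These medians lie beside one of −0.05 over all features, a median that scaling by the 75th percentile moved to 0.06.

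The members nearest to the threshold outside it were ST3GAL3, A4GALT and FUT8. ST3GAL3, which adds alpha-2,3 sialic acid to N-glycans and glycolipids, had a log2 FC of 0.45 ± 0.17 SE (adjusted p = 0.0590, limma). Its 1 probe was dim, well above background on 5 DD and 4 LW arrays, and with brightness as a covariate the log2 FC was 0.11. A4GALT, the globotriaosylceramide synthase that acts before B3GALNT1, had one of 0.41 ± 0.16 SE (adjusted p = 0.0703, limma), with 0.00 on chip 1, 0.50 on chip 2 and 0.77 on chip 3. ST6GALNAC6, a ganglioside sialyltransferase and a bright member with medians of 11.57 in DD and 11.05 in LW pigs, had a log2 FC of 0.37 (limma adjusted p = 0.0922).

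In the families without a call, the member with the smallest p is given here. GALNT2, a starter of mucin-type chains, had a log2 FC of −0.32 ± 0.13 SE (adjusted p = 0.0820, limma), and GCNT1, the core 2 branching enzyme of selectin ligands, had one of 0.27 ± 0.14 SE (adjusted p = 0.157, limma). EXTL1 of heparan sulphate synthesis had 0.17 ± 0.09 SE (adjusted p = 0.156, limma) and MGAT4B −0.17 ± 0.13 SE (adjusted p = 0.361, limma). OGT, which marks nuclear and cytosolic proteins with N-acetylglucosamine, had −0.13 ± 0.11 SE (adjusted p = 0.410, limma). HS2ST1 had 0.07 ± 0.09 SE (adjusted p = 0.647, limma) and ST6GAL1, which adds alpha-2,6 sialic acid, 0.02 ± 0.10 SE (adjusted p = 0.887, limma).

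**Figure D3:**
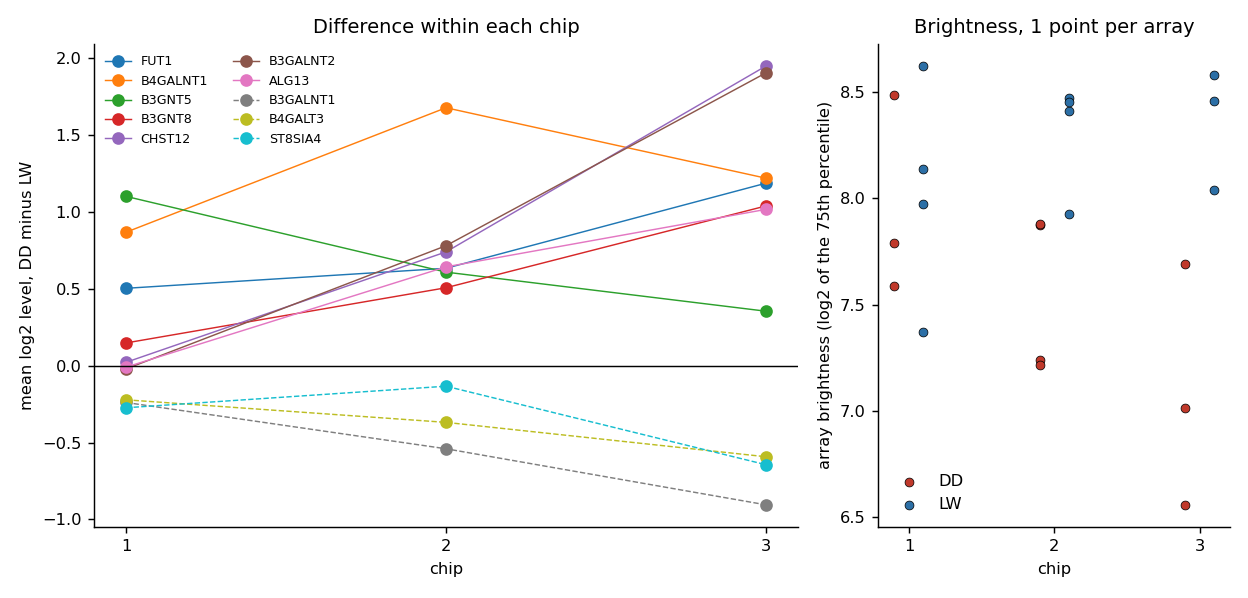
Left, the mean log2 level of DD minus LW pigs within each chip for the 10 called members, with solid lines for the 7 higher and dashed lines for the 3 lower; the lines only join the points of a gene. Right, brightness of each array by chip, red for DD and blue for LW: CHST12 goes from 0.02 on chip 1 to 1.95 on chip 3, where the breed means of brightness are 7.09 and 8.36.

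The called members were set against array brightness within breed and chip. A slope of −1.19 for CHST12 means that its log2 level fell by that much for each unit of log2 brightness, and the slope was −1.22 for B3GALNT2, −0.84 for ALG13 and −0.62 for B3GNT8. B4GALNT1 had a slope of −0.27 and B3GNT5 one of 0.46. FUT1 had one of −0.20, which averages 0.28 for the probe at base 2364 and −0.68 for the dim probe at base 1249. All 3 lower genes had a positive slope. Over the 62 members 48 had a slope opposite in sign to their difference between breeds, and the slope correlated with the log2 FC at r = −0.61 across genes, which share the same arrays and are not replicates. Since DD arrays were dimmer, brightness and breed go together here. The part of brightness in each difference was not tested beyond the covariate fit, in which FUT1 kept a log2 FC of 0.61 (limma adjusted p = 0.0337).

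**Figure D4:**
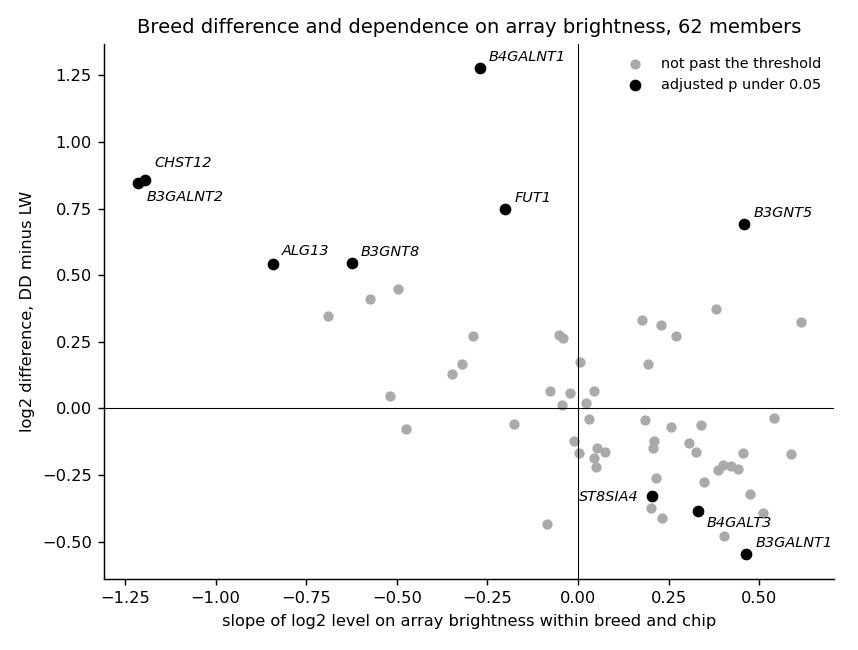
Slope of the log2 level on array brightness within breed and chip (x axis, log2 per log2 unit) against the log2 difference of DD minus LW (y axis) for the 62 tested members, with the 10 called ones in black. CHST12 and B3GALNT2 lie far to the left at slopes of −1.19 and −1.22, FUT1 and B4GALNT1 near the middle, and B3GNT5 is the called higher gene on the right.

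The same gene was often measured by several probes, which gives a view of the spread that is free of the pigs. In ST3GAL4, an alpha-2,3 sialyltransferase, 2 probes have the same 60 bases, and over the 21 arrays they differed by 0.21 on average with an SD of 0.12. The identical pairs in ST8SIA4 and GALNT1 differed with an SD of 0.13 and 0.14. The largest gap of these identical pairs on any array was 0.38 in ST3GAL4, 0.26 in ST8SIA4 and 0.58 in GALNT1. Probes that only overlap could differ more. Pairs sharing 56 bases in ST6GAL1 and 57 in POFUT1 had an SD of 0.42 and 0.43, with gaps of up to 1.48 and 1.78. Pairs sharing 46 bases in ST3GAL4 and 57 in OGT had an SD of 0.09 and 0.16.

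Of the 22 tested genes with more than 1 kept probe, 7 had probes of both signs. In ALG5, for example, 2 of 5 probes passed lower while the brightest one had a log2 FC of 0.43 (limma adjusted p = 0.0553), and in HS2ST1 1 of 3 passed, higher.

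The sequence of a probe and its difference between breeds went together. Over the 99 kept member probes the share of G and C bases correlated with the log2 FC at r = 0.39, and over all 45228 kept probes at r = 0.23. Probes share arrays and genes, so this is a description. Member probes with at most 35% G and C had a median log2 FC of −0.25 (19 probes), those over 40 and up to 45% one of −0.06 (52 probes), and those over 50 and up to 55% one of 0.27 (12 probes). Over all kept probes these medians were −0.18, −0.04 and 0.12. Above 55% the median was lower again in members, at 0.07 (5 probes), and 0.29 over all kept probes. B4GALNT1 and CHST12 were measured by probes of 55% and the FUT1 probe at base 2364 by one of 41.7%. When the trend of each array on base composition was removed, a step chosen after seeing the data, FUT1 had a log2 FC of 0.74, B4GALNT1 1.14, B3GNT5 0.78 and B3GNT8 0.33, and ST8SIA4 lost its call at −0.25 (limma adjusted p = 0.0654).

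**Figure D5:**
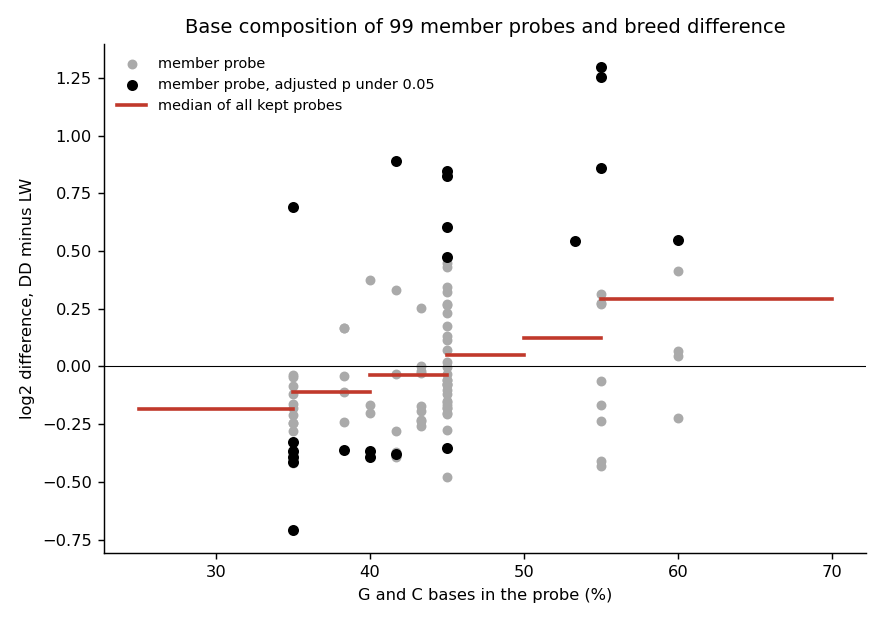
Share of G and C bases in a probe (x axis, %) against the log2 difference of DD minus LW (y axis) for the 99 kept member probes, black where the probe passed the threshold by itself. Red bars are medians of all kept probes in a range of base composition, from −0.18 at 35% or less upward.

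Genes that supply or process the same sugar chains were read from lists of 120 names, of which 70 were tested. Among them 5 rose and 15 fell in DD pigs (28.6%, against 21.2% of all features in both directions). Of the 20 tested genes of donor synthesis 2 rose and 5 fell, of 11 dolichol and oligosaccharyltransferase genes 1 rose and 4 fell, of 11 nucleotide sugar transporters 1 fell, and of 12 transferases outside the name rule 1 rose and 3 fell. The count over these lists was sensitive to single chips and animals and to brightness. It was 0 without chip 3, where 1.52% of all features were called, and 9 without the pig DD_21, where 10.9% were. Without LW_07 it was 28, with 27.9% of all features. With array brightness as a covariate it was 1, with 2.18% of all features.

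The calls in the list of donor synthesis included genes of sialic acid. NANS, the sialic acid synthase, ran from 8.33 over a median of 8.69 to 9.18 in DD pigs and from 8.88 over a median of 9.10 to 9.45 in LW pigs. Its log2 FC was −0.43 ± 0.09 SE (adjusted p = 0.00481, limma), with −0.28, −0.45 and −0.59 on chips 1, 2 and 3. GNE, which starts the route, had a log2 FC of −0.42 ± 0.11 SE (adjusted p = 0.0168, limma), and CMAS, which activates sialic acid, one of 0.69 ± 0.23 SE (adjusted p = 0.0372, limma). CMAS lost its call in 13 of the 21 fits that left out 1 animal, with a limma adjusted p of up to 0.0779 without DD_21. NANP, a phosphatase of the same route that was named after its values were seen, had a log2 FC of 0.33 (limma adjusted p = 0.101). With brightness as a covariate NANS passed at −0.47 (limma adjusted p = 0.0417), and GNE and CMAS did not, at −0.22 and 0.47.

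UAP1 and GNPNAT1, which make UDP-N-acetylglucosamine, had a log2 FC of −0.44 and −0.45, and GFPT2, an isoform of the first enzyme of that route, had 0.48. MFNG, which lengthens O-fucose on Notch, had a log2 FC of −0.53 ± 0.12 SE (adjusted p = 0.00945, limma), GANAB, the glucosidase that trims new N-glycans, −0.52, and CSGALNACT1 of chondroitin synthesis −0.61. DHDDS, which makes the dolichol carrier, had 0.77 ± 0.23 SE (adjusted p = 0.0247, limma), with 0.04, 0.98 and 1.32 on chips 1, 2 and 3 and a slope on brightness of −1.09. In the fit with brightness none of these genes passed in limma: DHDDS had 0.0229 (adjusted p = 0.995), GFPT2 0.14, UAP1 −0.28, GNPNAT1 −0.23, MFNG −0.29, GANAB −0.24 and CSGALNACT1 −0.38.

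Markers of blood cell types were read beside these results. Of 7 tested T cell markers 2 were lower and 0 higher, of 6 erythroid markers 2 were higher, of 4 monocyte and 4 platelet markers 1 each was lower, and none of the 3 B cell, 5 neutrophil and 5 cytotoxic cell markers passed, against 21.2% of all features. All 7 T cell markers had a log2 FC below 0 (median −0.38), and so did 4 of the 5 cytotoxic markers (median −0.32), while the erythroid median was 0.43. The mean log2 level of the erythroid list ranged from 11.37 to 12.68 in DD pigs and from 11.06 to 12.40 in LW pigs, and that of the T cell list from 8.09 to 9.41 and from 8.49 to 9.54. The ranges of the breeds overlapped in both lists, and their part in the differences of the glycosyltransferases was not tested.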

How the data were processed

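Blood arrays of 10 DD and 11 LW pigs, each a one-colour array of a single pig, were analysed; groups, litters and chips came from the labels. The authors extracted the scans with Agilent Feature Extraction 10.7.3.1 (submitters' processing notes), removed outlying arrays, and deposited a matrix of log2 values after background correction and quantile normalization. The scanner files hold the deposited intensity of each spot and its local background, and were used for detection flags, probe sequences and alternatives. The depth of an array is limited by the number of arrays and by signal over background.

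Leaving controls aside, probes in the lowest 25% by mean level (below 3.97) were removed, and kept probes were averaged by the scanner files' gene name. Differences were fitted with limma 3.58.1 (with statmod 1.5.0, under R 4.3.3) on breed and chip, with litters of a sow as random blocks (consensus correlation −0.11), with eBayes and Benjamini-Hochberg adjustment over 34511 features. Probes were also fitted singly over 45228 kept probes, with the same correlation. Fits that left out 1 animal kept this correlation. With this negative correlation the block did not make the calls fewer. Without it 8 members and 14.6% of all features were called, against 10 and 21.2% with it. A fit on litter means called 12 members and 19.6% of all features.

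Genes named are FUT1, called members with the same sign on all 3 chips, the smallest p in each family without one, and up to 10 called partner genes. The members and lists were chosen with earlier results of these data known. Alternatives, 15 set in advance and 1 added after seeing the data, besides leaving out each animal, concern normalization, filter, probe choice, names, block, chip, brightness and base composition. The model was tested on simulated data. The probes of 1 gene are not reported here. Positions are those of RefSeq on Sscrofa11.1. Arrays give no probe mapping, and no genome was used, so whether a probe lies in an exon or UTR was not analysed here. P-values measure the spread between these pigs.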

Additional observations from a re-analysis of the deposited data

Results flagged for a closer look

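A single animal stood apart from the other DD pigs in 2 of the 22 named members. The pig DD_21, on chip 3, was the lowest DD pig for ST8SIA4, at 7.76 with the next at 8.33, and for GALNT2, at 5.83 with the next at 6.52. The gap to the next pig was 0.517 of the range of the breed for ST8SIA4 and 0.499 for GALNT2, both past the 95% critical value of Dixon for 10 animals. Chance flags about 1 in 20 groups. The array of DD_21 was also the dimmest of all, at a brightness of 6.56, with the lowest share of probes well above background, 44.7%. Within breed and chip the slope on brightness was 0.20 for ST8SIA4 and 0.48 for GALNT2. Whether the pig or its array set it apart was not tested. Without this pig the log2 FC was −0.26 for ST8SIA4 and −0.23 for GALNT2.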

How the results depend on the processing

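Every alternative gave FUT1 a higher level in DD pigs, and the adjusted p of FUT1 passed the threshold in all but 1 of them. Without chip 3 its log2 FC was 0.58 and did not pass. The counts of called genes moved more. The main fit called 7 higher and 3 lower members, 20 partner genes and 21.2% of all features. These counts were 0, 0 and 0 without chip 3 (1.52% of all features) and 2, 0 and 1 with array brightness as a covariate (2.18%). Without the chip term 3 members were higher and 4 partners were called, with 5.57% of all features. The highest-mean probe of each gene gave 5 lower members, with 22.7% of all features called in either direction. Partner calls numbered 12 with scaling to the 75th percentile, 12 without the filter, 13 without the sow block and 11 without chip 2. In these fits 20.6%, 9.76%, 14.6% and 14.7% of all features were called. With 1 animal left out, 4 to 10 members were higher, 2 to 6 were lower and 9 to 28 partners were called. The share of all features called ran from 10.9% without DD_21 to 28.6% without DD_06, and was 27.9% without LW_07. The higher members numbered 4 without DD_21, LW_12 or LW_18, and 10 without LW_07, and the lower members numbered 5 without DD_06 and 6 without LW_07. Partner calls fell to between 9 and 13 without DD_01, DD_21, DD_23, LW_05, LW_12, LW_18, LW_22 or LW_24. In these fits between 10.9% and 14.2% of all features were called.

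Among the named genes the sign turned in these cases, where the cause was not tested. With brightness as a covariate the log2 FC was −0.0351 for ALG13, 0.000899 for GALNT2, 0.0760 for OGT and 0.0731 for POFUT1. Without chip 2 it was 0.0378 for MGAT4B, 0.0254 for POFUT1 and −0.0522 for HS2ST1. Without chip 3 it was 0.0369 for OGT and −0.0241 for ST6GAL1. With the highest-mean probe it was −0.11 for HS2ST1. With 1 animal left out it ranged from −0.0273 to 0.0578 for ST6GAL1 and from −0.32 to 0.0179 for POFUT1. Of these genes ALG13 alone had passed the threshold. No paired analysis was possible because the DD and LW pigs are different animals from separate litters. Signal over background limits the size of the differences of dim genes: with an offset of 50 the log2 FC was 0.33 for FUT1, −0.25 for B3GALNT1 and −0.21 for UAP1.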

Other observations

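After breed and chip were taken out, the called members fell into sets that moved together over the 21 pigs, given here as a description with no test. CHST12, B3GALNT2, B3GNT8 and ALG13 correlated with each other at r between 0.79 and 0.98. B3GNT5, B3GALNT1 and B4GALT3 correlated with each other at r between 0.60 and 0.66, and with the first set at r between −0.76 and −0.50. B4GALNT1 correlated with every other called member at r between −0.29 and 0.33. FUT1 correlated with CHST12 at 0.47 and with B3GALNT1 at −0.52. ST8SIA4 correlated with B3GNT5, B3GALNT1 and B4GALT3 at r between 0.37 and 0.60. After breed and chip were taken out, array brightness correlated with the first set at r between −0.89 and −0.78. With B3GNT5, B3GALNT1 and B4GALT3 brightness correlated at r between 0.50 and 0.77, and with ST8SIA4 at 0.41. The part of brightness in these sets was not tested. All these values share the arrays of the same 21 pigs.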
